A study of Mus musculus with 10 samples.

Results

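The Oog, Obox, Pramel and Nlrp genes are 4 mouse gene families whose best known members work in the egg and the early embryo, and their H3K4me3 was described in neuronal nuclei of hippocampal area CA1. Members were all autosomal protein-coding genes of the mm10 RefSeq annotation with a symbol that starts with Oog and a digit, Obox, Pramel, Pramef or Nlrp. This gave 73 of 21887 protein-coding genes, made up of 4 Oog, 6 Obox, 45 Pramel, 0 Pramef and 18 Nlrp genes, and left out 2 matching genes on X. The 4 transgenic libraries come from mice of the genotype named CamkdeltaC transgenic, which carry a splice form of calcium/calmodulin-dependent kinase II delta, and the 4 littermate control libraries from wildtype mice. All 8 are from male mice aged 3 months. The labels name neither the promoter that drives the transgene nor separate animals for the libraries, so the errors given are the spread among libraries, part of which may be technical. The protocol tells of vorinostat or vehicle in the drinking water of transgenic mice and of vehicle for controls, but no library used here carries a drug label. Nuclei were sorted for NeuN, a neuronal protein, and chromatin was precipitated with an antibody against H3K4me3, the trimethyl mark on lysine 4 of histone H3 that sits at promoters of active and poised genes. The measure was the length covered by peaks within 2 kb to each side of a gene's better covered end, a window of 4001 bp. The families were chosen by name, but after the covered length at these windows in the 8 libraries had been seen, among it the difference at Oog3. The values of transgenic against control libraries below therefore describe the families and test nothing about them.

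Oog genes encode oogenesins, leucine-rich repeat proteins of oocytes and early embryos that belong to the same wider family as the Pramel genes, the mouse relatives of the human tumour antigen gene PRAME. PRAME proteins act as substrate receptors of a cullin ubiquitin ligase, and most Pramel genes lie in tandem arrays that expanded in rodents. Obox genes encode homeodomain transcription factors of oocytes, some of which help to switch on the embryonic genome in mice. Nlrp genes encode NOD-like receptors, most of them with a pyrin domain. Some sense infection or damage and build inflammasomes, while Nlrp5, Nlrp2 and the Nlrp4 and Nlrp9 groups are known mainly from oocytes, where Nlrp5 (also called Mater) is part of the subcortical maternal complex that early cleavage needs.

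RefSeq promoters of GRCm38.p6, 250 bases before to 50 after a gene's start, were matched by symbol for 60 of the 73 members, with 65 promoters in all. They held few CpG sites, with a median of 1 per 300 bases (range 0 to 20), against a median of 14 over 20085 autosomal coding promoters. Their median GC content was 43.3%, against 57.0% over all of these promoters, and their median observed-to-expected CpG ratio was 0.0833, against 0.586. The letters TATAAA stood on the gene's strand in 15 of the 65 promoters (23.1%), against 8.29% of all promoters, and on either strand in 17 (26.2%), against 12.7%. In 9 promoters this stretch lay 20 to 40 bases before the start. A match of letters is a description and no evidence of a bound factor. The sequences below are shown for the low CpG count that nearly all members share, for Oog3 and Oog2, which have TATAAA 29 and 30 bases before the start, for Pramel1, the only member promoter above the median CpG count of all promoters, and for a pair of copies that are the same in every base. They run 5′ to 3′ on the gene's own strand, with CG and TATAAA in capitals. Oog3 lies at chr4:144162602-144162901 (minus), Oog2 at chr4:144190467-144190766 (plus), Pramel25 at chr4:143789084-143789383 (plus), Pramel1 at chr4:143394191-143394490 (plus), Pramel37 at chr5:94070496-94070795 (minus), Pramel50 at chr5:95736124-95736423 (minus), Obox5 at chr7:15750120-15750419 (plus) and Nlrp6 at chr7:140920652-140920951 (plus).
Oog3: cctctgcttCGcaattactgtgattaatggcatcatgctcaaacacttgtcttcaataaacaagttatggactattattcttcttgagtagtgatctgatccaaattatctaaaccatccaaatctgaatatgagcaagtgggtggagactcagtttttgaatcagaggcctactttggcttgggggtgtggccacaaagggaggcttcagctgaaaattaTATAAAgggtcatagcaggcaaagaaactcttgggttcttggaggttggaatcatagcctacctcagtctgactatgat
Oog2: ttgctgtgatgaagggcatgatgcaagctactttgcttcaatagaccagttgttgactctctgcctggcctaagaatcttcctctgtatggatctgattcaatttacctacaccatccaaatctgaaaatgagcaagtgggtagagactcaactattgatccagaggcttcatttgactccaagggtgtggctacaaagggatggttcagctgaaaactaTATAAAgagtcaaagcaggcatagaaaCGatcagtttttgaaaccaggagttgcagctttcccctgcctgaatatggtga
Pramel25: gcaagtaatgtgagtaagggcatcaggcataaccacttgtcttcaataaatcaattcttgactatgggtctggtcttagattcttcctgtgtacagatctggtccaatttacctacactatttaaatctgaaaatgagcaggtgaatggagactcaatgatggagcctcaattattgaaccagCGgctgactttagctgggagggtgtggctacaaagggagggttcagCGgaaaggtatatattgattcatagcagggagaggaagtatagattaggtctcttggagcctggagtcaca
Pramel1: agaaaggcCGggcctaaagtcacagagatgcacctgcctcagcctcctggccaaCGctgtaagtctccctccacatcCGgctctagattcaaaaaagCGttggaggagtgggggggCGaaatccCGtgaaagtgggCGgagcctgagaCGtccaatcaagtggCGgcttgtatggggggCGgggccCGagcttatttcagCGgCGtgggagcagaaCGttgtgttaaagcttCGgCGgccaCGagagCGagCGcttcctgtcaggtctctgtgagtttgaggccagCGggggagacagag
Pramel37: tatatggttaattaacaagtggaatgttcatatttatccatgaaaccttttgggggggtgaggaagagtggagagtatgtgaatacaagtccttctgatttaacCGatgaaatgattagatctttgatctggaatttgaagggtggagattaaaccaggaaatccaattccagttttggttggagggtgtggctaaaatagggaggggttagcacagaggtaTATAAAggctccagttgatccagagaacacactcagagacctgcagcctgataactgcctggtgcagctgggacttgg
Pramel50: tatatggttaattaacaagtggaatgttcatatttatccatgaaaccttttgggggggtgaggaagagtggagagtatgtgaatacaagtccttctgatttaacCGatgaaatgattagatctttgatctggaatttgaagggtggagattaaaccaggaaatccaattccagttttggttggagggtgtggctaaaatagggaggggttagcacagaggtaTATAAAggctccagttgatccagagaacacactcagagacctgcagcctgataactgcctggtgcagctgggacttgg
Obox5: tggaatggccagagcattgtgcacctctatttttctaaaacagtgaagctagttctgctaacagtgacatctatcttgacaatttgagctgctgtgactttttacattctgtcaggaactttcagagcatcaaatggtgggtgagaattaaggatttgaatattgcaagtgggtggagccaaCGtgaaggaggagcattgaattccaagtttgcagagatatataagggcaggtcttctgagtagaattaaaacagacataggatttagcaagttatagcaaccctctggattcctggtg
Nlrp6: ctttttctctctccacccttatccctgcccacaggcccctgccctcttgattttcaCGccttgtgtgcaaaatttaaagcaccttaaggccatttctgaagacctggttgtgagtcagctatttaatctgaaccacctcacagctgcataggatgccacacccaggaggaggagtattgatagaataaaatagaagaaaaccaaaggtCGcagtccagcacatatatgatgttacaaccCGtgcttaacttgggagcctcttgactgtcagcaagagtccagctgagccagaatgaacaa

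The Pramel37 and Pramel50 promoters matched in 300 of 300 bases, although the genes lie in separate runs of genes on chromosome 5. Of the 65 member promoters, 32 (49.2%) shared at least 1 stretch of 50 bases, the read length of these libraries, with the promoter of another gene, against 18.7% of all promoters. The 12 Pramel promoters on chromosome 5 shared a median of 86.9% of their 50-base stretches, and the 22 on chromosome 4 a median of 5.18%. Reads of that length from a shared stretch fit more than 1 place, and how they were placed is not given in the sources used here. Promoters of other families shared such stretches too. The share was 79.7% at Obox1, 61.4% at Obox2, 47.0% at Obox5, 33.9% at Obox7 and 8.37% at Obox3. It was 81.7% at Oog1, 13.5% at Oog2 and 22.7% at both Nlrp9a and Nlrp9c. Values of the chromosome 5 Pramel genes and of other genes with shared stretches are therefore uncertain. The part of shared sequence in any value was not tested.

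The peak lists set the limits of what follows. They held 102285, 63921, 60388 and 66560 peaks in transgenic libraries 1 to 4, and 51903, 65600, 66811 and 54597 peaks in control libraries 1 to 4. These counts include X and Y, where coverage was uneven. Peaks there covered 10.99, 1.058, 1.605 and 5.041 Mb in transgenic libraries and 1.328, 4.625, 4.481 and 1.515 Mb in control libraries. Autosomal peaks numbered 52998 to 70908 in transgenic libraries and 49734 to 53781 in control libraries. Read counts are not part of the lists, which leaves the depth unknown. Transgenic library 1 stood apart with the longest list, so the main sums, shares of runs and counts are also given without it, as are the genes described one by one whose difference then moved by over 1.5 times. On the autosomes, the covered length within 2 kb of a gene end was 21.5 ± 1.22 Mb in transgenic libraries and 20.7 ± 1.05 Mb in control libraries. The covered length elsewhere was 23.2 ± 2.65 Mb in transgenic libraries and 17.8 ± 1.22 Mb in control libraries (SD, n = 4 each), a ratio of 1.31, or 1.24 without transgenic library 1. All 7 neuronal markers examined (Rbfox3, Map2, Snap25, Syt1, Camk2a, Slc17a7 and Neurod6) had a peak in all 8 libraries. Among 7 oocyte markers Gdf9, a growth factor gene, had a peak in all 8 libraries and Oosp1 in 3, while Zp1, Zp2, Zp3, Nobox and Figla had none in any.

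Peaks were present at many of these genes in CA1 neurons of both genotypes. Of the 73 members, 30 (41.1%) had a peak in the window in all 8 libraries, against 13096 of 20665 autosomal coding genes (63.4%). A further 14 members had a peak in 4 to 7 libraries, 10 in 1 to 3, and 19 (26.0%) in none, close to the 26.1% of all autosomal coding genes with none. By family, 3 of 4 Oog, 4 of 6 Obox, 11 of 18 Nlrp and 12 of 45 Pramel genes had a peak in all 8 libraries. The Pramel genes divided by position, since 12 of 24 on chromosome 4 and 0 of 18 on chromosome 5 had a peak in all 8 libraries. None of the 8 libraries had a peak at 11 of the 18 on chromosome 5. Between 41 and 46 members had a peak in a transgenic library, and between 36 and 40 in a control library.

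**Figure D1:**
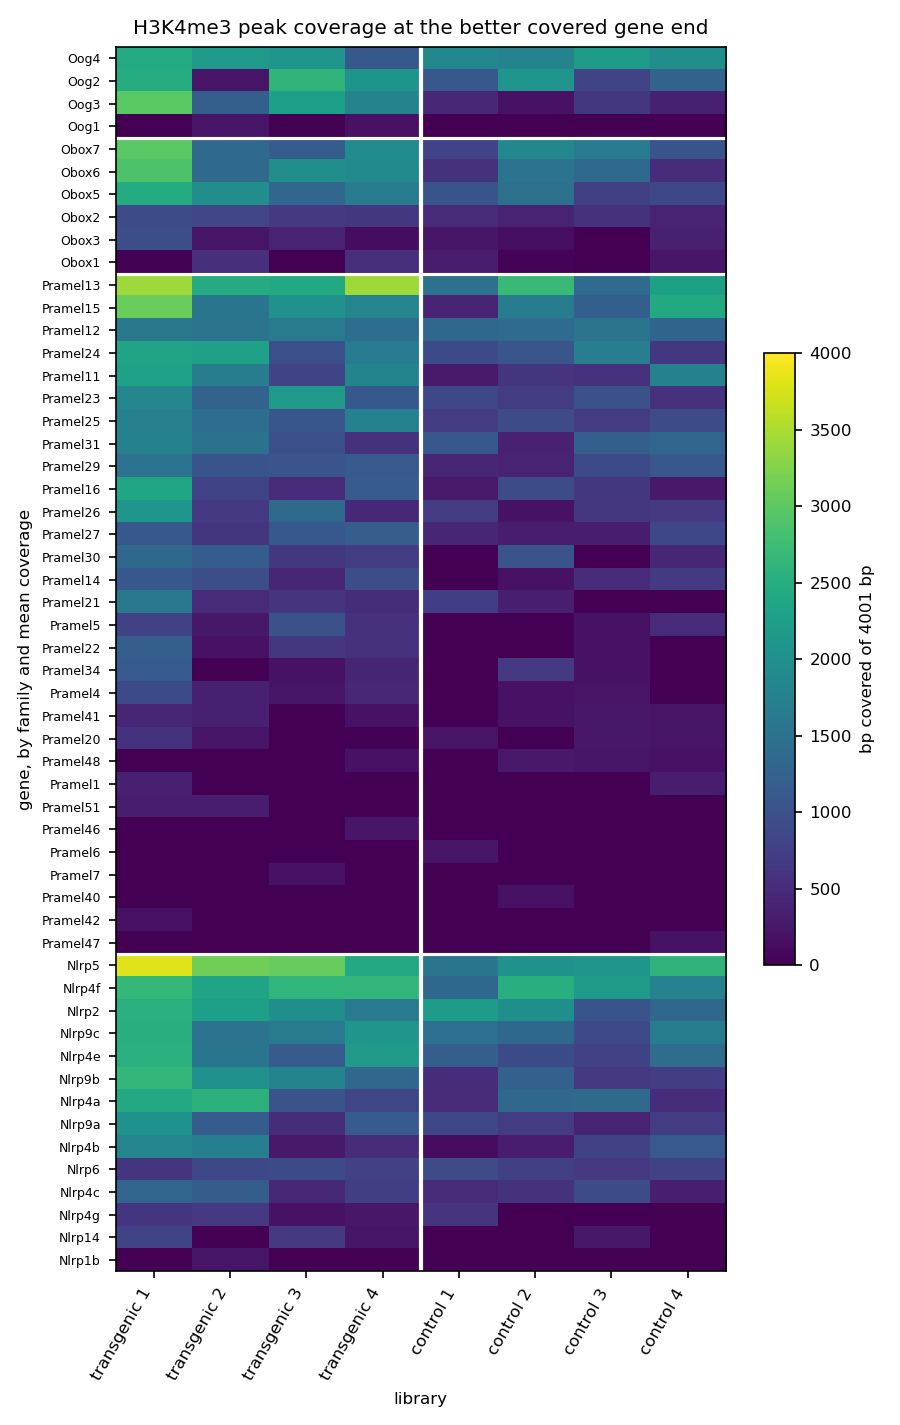
Length covered by H3K4me3 peaks (colour, bp of 4001 bp) at the better covered gene end of the 54 members with a peak in at least 1 library, one row per gene in 4 family blocks (Oog, Obox, Pramel, Nlrp from the top) and one column per library, transgenic left of control. Transgenic library 1 is the brightest transgenic column, and the lower Pramel rows are dark in nearly all libraries.

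Summed over the windows of all 73 members, peaks covered 79.6, 52.5, 48.9 and 51.1 kb in transgenic libraries 1 to 4 and 28.8, 37.6, 34.0 and 36.9 kb in control libraries 1 to 4. Every transgenic sum lay above every control sum. The means were 58.0 ± 14.5 kb in transgenic libraries and 34.3 ± 4.02 kb in control libraries (SD, n = 4 each), a ratio of 1.69, or 1.48 without transgenic library 1. The same sum over all autosomal coding genes was 23.8 ± 1.43 Mb in transgenic libraries and 23.2 ± 1.10 Mb in control libraries, a ratio of 1.02. By family the sums were 5.97 ± 1.82 kb in transgenic and 3.70 ± 0.277 kb in control libraries for Oog, and 7.21 ± 2.06 kb in transgenic and 4.18 ± 0.962 kb in control libraries for Obox. For Pramel they were 24.7 ± 7.03 kb in transgenic and 13.8 ± 2.78 kb in control libraries, and for Nlrp 20.2 ± 4.68 kb in transgenic and 12.6 ± 0.890 kb in control libraries. Without transgenic library 1 the transgenic means were 5.32 ± 1.58 kb for Oog, 6.21 ± 0.651 kb for Obox, 21.2 ± 1.14 kb for Pramel and 18.1 ± 2.70 kb for Nlrp (SD, n = 3). The covered length away from gene ends on the autosomes was also higher in transgenic libraries, and its part in the members' values was not tested.

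Breadth was compared per gene as log2(bp + 100 bp), transgenic minus control, with limma over all 14753 promoters with a peak in at least 4 of the 8 libraries, a filter that 44 members passed. No member was called at an adjusted p of 0.05, in a comparison that called 0% of all tested promoters wider and 0% narrower. The 95% confidence interval lay within a 1.5-fold difference in either direction in only 3 of the 44. The lack of a call therefore does not show equal breadth. At an unadjusted p under 0.05, 21 of the 44 were wider in transgenic libraries, where 2.8% of all tested promoters were, and 0 were narrower, where 1.32% were. Without transgenic library 1 the first count was 9 of 43, where 2.81% of all tested promoters were wider. The log2 difference lay above 0 in 40 of the 44, where 46.4% of all tested promoters did, and below 0 in Oog4, Pramel20, Pramel48 and Nlrp6. A peak was present in all 4 transgenic but not all 4 control libraries at 8 members, and the reverse held at 0. Some members thus passed the filter mainly through the transgenic libraries, and their differences rest in part on controls without a peak. This was not counted over all promoters. The median log2 difference over the 44 was 0.73 (0.46 without transgenic library 1), and −0.01 over all tested promoters. By family it was 0.12 for 3 Oog, 0.67 for 6 Obox, 0.80 for 22 Pramel and 0.67 for 13 Nlrp genes. In 6 members, Oog3, Obox2, Pramel4, Pramel23, Pramel25 and Nlrp9b, all 4 transgenic values lay above all 4 control values, which held for 1.86% of all tested promoters. In 0 members did all 4 transgenic values lie below, against 0.481% of all tested promoters. Transgenic library 1 had the highest of the transgenic values in 32 of the 44. Because the choice of families drew on this comparison, these shares are given side by side and nothing is read from them.

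**Figure D2:**
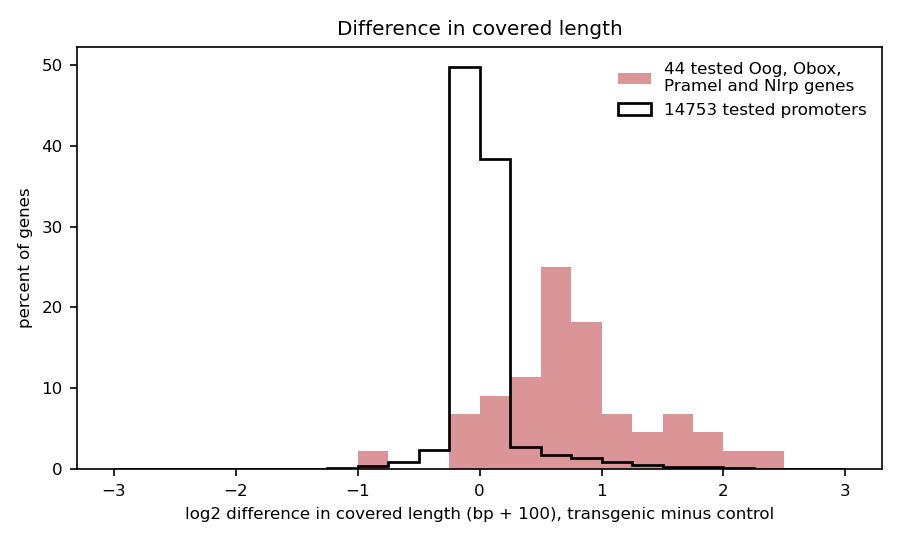
Share of genes (percent, vertical axis) by log2 difference in covered length, transgenic minus control, in steps of 0.25 (horizontal axis), for the 44 tested members (filled) and all 14753 tested promoters (outline). The members centre on a median of 0.73 and all promoters on −0.01.

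Among the Oog genes, Oog3 differed by the largest amount. Its window, at the start of the gene (chr4:144157556-144162651), was covered over 2980, 1212, 2258 and 1795 bp in transgenic libraries 1 to 4 and 455, 200, 648 and 344 bp in control libraries 1 to 4. The groups did not overlap, and the log2 difference was 2.07 ± 0.33 (SE). Oog2, the next Oog gene along chromosome 4, had 2479, 229, 2621 and 2077 bp in transgenic libraries and 1108, 2094, 828 and 1295 bp in control libraries. Transgenic library 2 held the lowest value of all 8 there, the groups overlapped, and the log2 difference of 0.12 ± 0.62 fell below 0 when transgenic library 1, 3 or 4 or control library 3 was left out. Oog4 had 2443, 2151, 2089 and 1109 bp in transgenic libraries and 1863, 1791, 2186 and 1984 bp in control libraries. Its wide coverage in both genotypes differed by −0.08 ± 0.23 (−0.24 without transgenic library 1), and this lay at the gene's far end, 13160 bp from the annotated start. With the window at the annotated start the Oog4 difference was 0.89. Oog1, on chromosome 12, had a peak only in transgenic libraries 2 and 4.

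The Obox genes lie together on chromosome 7. Obox5, a homeobox gene of eggs and early embryos, had 2464, 1958, 1324 and 1629 bp in transgenic libraries 1 to 4 and 1032, 1478, 758 and 871 bp in control libraries 1 to 4. Obox6, used as a factor in reprogramming work in mouse cells, had 2879, 1378, 1980 and 1917 bp in transgenic libraries and 579, 1519, 1369 and 504 bp in control libraries. In both genes the groups overlapped at a single transgenic library, number 3 for Obox5 and number 2 for Obox6, and the log2 differences were 0.76 ± 0.24 and 1.04 ± 0.36 (SE). Obox2 was covered more thinly, over 912, 841, 661 and 647 bp in transgenic libraries and 499, 403, 592 and 391 bp in control libraries. These did not overlap (log2 difference 0.58 ± 0.22), and the Obox2 window lay at the gene end 9694 bp from the annotated start. Obox7 had 2982, 1385, 1172 and 1927 bp in transgenic libraries and 803, 1866, 1671 and 1038 bp in control libraries. Transgenic libraries 1 and 4 lay above all controls and libraries 2 and 3 among them (0.41 ± 0.33, and 0.13 without transgenic library 1). Obox3 had 939, 222, 377 and 139 bp in transgenic libraries and 227, 145, 0 and 350 bp in control libraries. Obox1 had 26, 545, 0 and 541 bp in transgenic libraries and 325, 36, 0 and 242 bp in control libraries. These short stretches gave differences with wide errors, of 0.83 ± 0.64 for Obox3 (0.38 without transgenic library 1) and 0.33 ± 0.84 for Obox1 (0.65 without it).

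Of the Pramel genes, the 8 with the widest coverage all lie in one run on chromosome 4. Pramel13, at its outer edge, had 3422, 2464, 2428 and 3427 bp in transgenic libraries 1 to 4 and 1506, 2719, 1394 and 2279 bp in control libraries 1 to 4. Pramel15 had 3092, 1548, 2019 and 1825 bp in transgenic libraries and 397, 1697, 1219 and 2424 bp in control libraries. Both overlapped between the groups, with log2 differences of 0.56 ± 0.21 and 0.69 ± 0.43 (SE). Pramel25 had 1735, 1443, 1072 and 1754 bp in transgenic libraries and 699, 922, 705 and 930 bp in control libraries. Pramel23 had 1856, 1266, 2148 and 1104 bp in transgenic libraries and 872, 715, 999 and 571 bp in control libraries. In these 2 genes every transgenic library lay above every control library, with log2 differences of 0.78 ± 0.16 for Pramel25 and 0.89 ± 0.24 for Pramel23, the second of which became −0.18 when each list was cut to the same number of top-ranked peaks. The Pramel23 window lay at the gene end 6224 bp from the annotated start. Pramel24 had 2333, 2283, 982 and 1627 bp in transgenic libraries and 895, 1048, 1711 and 655 bp in control libraries. Pramel11 had 2294, 1689, 815 and 1798 bp in transgenic libraries and 285, 610, 569 and 1757 bp in control libraries. Pramel31 had 1766, 1512, 983 and 563 bp in transgenic libraries and 1090, 369, 1204 and 1305 bp in control libraries. The groups overlapped in all 3, with log2 differences of 0.68 ± 0.33 for Pramel24, 1.09 ± 0.44 for Pramel11 and 0.25 ± 0.42 for Pramel31, which was 0.0031 without transgenic library 1.

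Pramel12 stood apart in the shape of its mark. It had 1601, 1535, 1661 and 1439 bp in transgenic libraries and 1330, 1400, 1546 and 1295 bp in control libraries. The spread between libraries was small, the groups overlapped and the log2 difference was 0.13 ± 0.09 (0.082 without transgenic library 1). The authors' fold enrichment of its strongest peak had a median of 33.2 over the 8 lists, the highest of the tested members, against a median of 34.4 over all tested promoters. The other Pramel genes were covered more thinly. Among the 18 tested members of all families that are not described one by one, mean coverage reached 1193 bp in transgenic libraries and 703.8 bp in control libraries, with log2 differences between −0.92 (Pramel48) and 2.31 (Pramel22) and 16 of them above 0. Pramel22 had a peak in 4 transgenic libraries and 1 control library, and Pramel48 in 1 transgenic library and 3 control libraries. Such differences rest on libraries without a peak. Peaks were found in 2 libraries at Pramel1, Pramel6 and Pramel51 and in 1 library at Pramel7, Pramel40, Pramel42, Pramel46 and Pramel47. Pramel7, which keeps mouse embryonic stem cells in their naive state, and Pramel1, with the CpG-rich promoter printed above, were therefore nearly unmarked. The remaining 15 Pramel genes without a peak comprised 4 on chromosome 4 and 11 on chromosome 5.

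**Figure D3:**
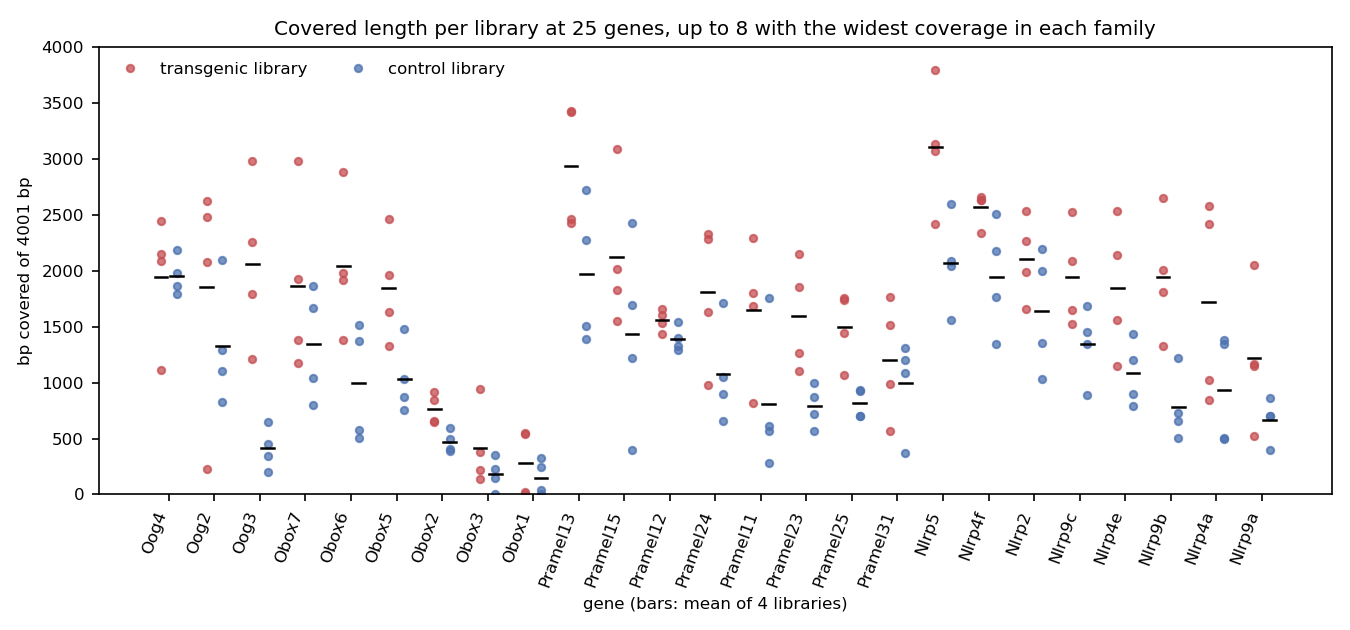
Length covered by peaks (vertical axis, bp of 4001 bp) at the 25 members described gene by gene, up to 8 per family, with one point per library (transgenic left, control right) and a bar at the mean of 4. Oog3 is the gene with the widest gap between the groups, and at Pramel12 the 8 libraries lie within 1295 to 1661 bp.

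The 8 Nlrp genes with the widest coverage all belong to groups known from oocytes. Nlrp5, the gene of the maternal protein Mater, had 3798, 3131, 3067 and 2415 bp in transgenic libraries 1 to 4 and 1559, 2043, 2090 and 2601 bp in control libraries 1 to 4. Nlrp2, also a maternal-effect gene in mice, had 2533, 2262, 1987 and 1655 bp in transgenic libraries and 2197, 1998, 1033 and 1350 bp in control libraries. The groups overlapped in both, with log2 differences of 0.54 ± 0.16 for Nlrp5 and 0.36 ± 0.24 for Nlrp2 (SE), the second being 0.23 without transgenic library 1, and the Nlrp5 window lay at the gene end 37821 bp from the nearest annotated start. A pseudogene, Gm5065, starts 493 bp from the Nlrp2 window's centre. Nlrp4f, on chromosome 13, had 2659, 2337, 2637 and 2634 bp in transgenic libraries and 1343, 2507, 2176 and 1767 bp in control libraries. Nlrp4e had 2538, 1556, 1145 and 2144 bp in transgenic libraries and 1204, 895, 794 and 1436 bp in control libraries. Nlrp4a had 2422, 2576, 1024 and 843 bp in transgenic libraries and 500, 1345, 1383 and 503 bp in control libraries. Of these Nlrp4 genes, receptors expressed in oocytes, none separated the groups, and the log2 differences were 0.39 ± 0.16 for Nlrp4f, 0.67 ± 0.25 for Nlrp4e and 0.78 ± 0.45 for Nlrp4a.

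Nlrp9b, which in mice also forms an inflammasome in gut epithelium, had 2648, 2009, 1811 and 1323 bp in transgenic libraries and 502, 1221, 658 and 732 bp in control libraries. All 4 transgenic values were higher, with a log2 difference of 1.22 ± 0.27, and the window's centre lies 280 bp from an end of the neighbouring gene Ceacam20, so the coverage of both genes cannot be told apart there. The annotated start of Nlrp9b lies 16630 bp from that centre. Nlrp9c had 2524, 1528, 1649 and 2086 bp in transgenic libraries and 1456, 1348, 885 and 1682 bp in control libraries. Nlrp9a had 2048, 1169, 520 and 1148 bp in transgenic libraries and 865, 697, 401 and 697 bp in control libraries. Both overlapped between the groups, with differences of 0.49 ± 0.21 for Nlrp9c and 0.67 ± 0.37 for Nlrp9a, which were 0.32 and 0.36 without transgenic library 1. Marking differed among the remaining Nlrp genes. Nlrp3, the best studied inflammasome sensor, had no peak in any library, and neither had Nlrp1a, Nlrp10 and Nlrp12. Nlrp1b had one in transgenic library 2 alone. Nlrp6, a sensor best known from the gut and picked here after its values were seen, had 615, 861, 898 and 786 bp in transgenic libraries and 914, 751, 665 and 770 bp in control libraries. The groups were intermixed there, with a log2 difference of −0.00 ± 0.15. No Nlrp6 difference is given without transgenic library 1, which held the lowest value of all 8.

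Seen along the chromosome, the coverage was not limited to the members' gene ends. Members less than 200 kb apart formed 6 runs of 3 or more genes. The run from Pramel1 to Pramel13 (chr4:143392441-144410467, 1018 kb), with 23 members including Oog2, Oog3 and Oog4, was covered over 27.4%, 16.3%, 15.5% and 15.6% of its length in transgenic libraries 1 to 4 and 10.4%, 11.4%, 11.6% and 12.5% in control libraries 1 to 4. Every transgenic share lay above every control share, also without transgenic library 1. Outside the windows at both ends of these members the shares were 17.2% ± 5.62 in transgenic libraries and 10.9% ± 0.560 in control libraries (SD, n = 4 each). The transgenic share was 14.4% ± 0.852 without library 1. The run also holds 4 other coding genes (Gm13043, Gm13040, Gm13057 and Gm13102), whose ends were not left out of these shares. All autosomes, from the first to the last gene of each, were covered over 1.83% ± 0.0594 in transgenic libraries and 1.58% ± 0.0918 in control libraries. There too every transgenic share (1.914%, 1.832%, 1.785% and 1.791%) lay above every control share (1.481%, 1.56%, 1.565% and 1.702%). Separation of the groups was thus not particular to the run. Both genotypes thus had far denser peaks in this run than over the autosomes, with 425 peaks per Mb in transgenic and 313 in control libraries, against 25.03 per Mb of all autosomes in transgenic and 21.3 in control libraries. Without library 1 the transgenic density was 387.7 per Mb in the run and 23.7 per Mb of all autosomes. The authors' fold enrichment of the run's peaks had medians of 4.90 to 5.11 in transgenic lists and 4.80 to 5.14 in control lists. Over all autosomal peaks these medians were 5.551 to 5.834 in transgenic lists and 5.435 to 6.516 in control lists. In 20-kb bins along the run the transgenic mean was higher in 47 of 51, all 4 transgenic libraries were above all controls in 16, and 3 bins were empty in every library. Without transgenic library 1 the transgenic mean was higher in 44 bins. Bins over all autosomes, where covered length was also higher in transgenic libraries, were not counted. Nothing particular to the run is therefore read from these bin counts. The bin with the widest coverage, at the Pramel13 edge, had a mean of 62.3% in transgenic and 47.3% in control libraries.

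**Figure D4:**
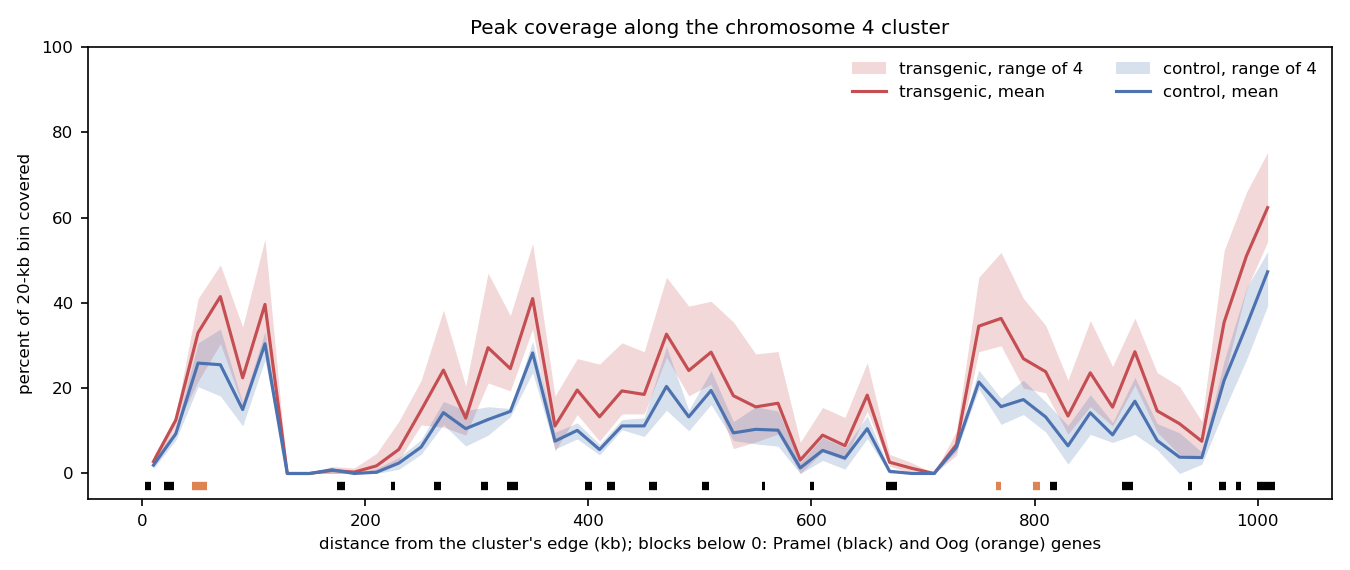
Percent of each 20-kb bin covered by peaks (vertical axis) against the distance in kb from the edge of the chromosome 4 run (horizontal axis), with lines for the mean of 4 transgenic and 4 control libraries, bands for their range, and blocks below 0 for the Pramel and Oog genes. Both lines follow the same hills and gaps, with the transgenic mean higher in 47 of 51 bins. Bins over all autosomes were not counted.

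A pair of runs on chromosome 7 was alike in this. The run from Nlrp9c to Nlrp9a (chr7:26362691-26576148) was covered over 46.0%, 25.4%, 23.4% and 26.4% in transgenic libraries 1 to 4 and 18.1%, 16.97%, 17.4% and 16.9% in control libraries 1 to 4. The run from Obox2 to Obox6 (chr7:15386851-15841679) was covered over 17.1%, 9.41%, 9.36% and 9.42% in transgenic libraries and 5.07%, 6.44%, 7.64% and 7.40% in control libraries. In both, transgenic library 1 was far above the other transgenic libraries, and those in turn lay above all controls, as they did over all autosomes. The Pramel33 to Pramel43 run on chromosome 5 had little coverage, 1.32% ± 0.554 in transgenic libraries and 0.591% ± 0.163 in control libraries. The Pramel45 to Pramel50 run had 1.06% ± 0.454 in transgenic libraries and 0.614% ± 0.153 in control libraries (SD, n = 4 each). Without library 1 the transgenic means were 1.06% ± 0.253 and 0.834% ± 0.0931 in these 2 runs, and the differences from the controls moved to 0.467 percentage points, against 0.724 with all libraries, in the first and to 0.221, against 0.444, in the second. Only the second of these runs overlapped between the groups, and the means of both lay below the autosomal share in either genotype. In the Pramel17 to Pramel19 run on chromosome 4 a single peak was listed, in control library 1.

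**Figure D5:**
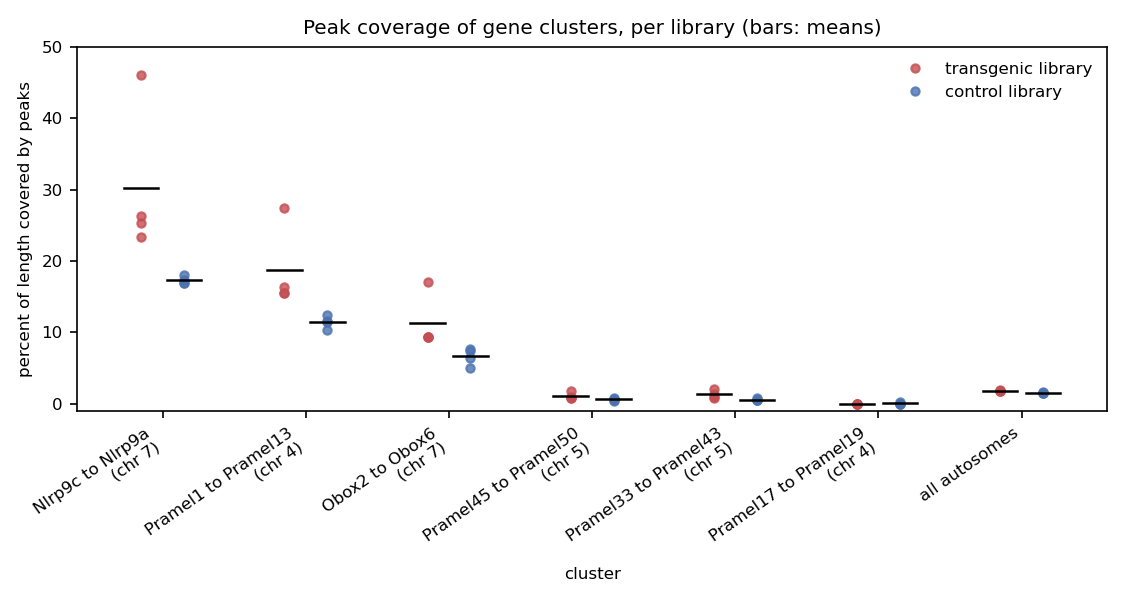
Percent of the length of each run of members, and of all autosomes, covered by peaks (vertical axis), one point per library with transgenic left of control and bars at the means. The Nlrp9c to Nlrp9a run is covered most, with 46.0% in transgenic library 1 and 16.9% to 18.1% in control libraries.

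The same comparison was made over 72683 regions, formed from all 8 lists and kept where at least 2 had a peak. Of these, 483 overlapped a member's gene body or the 2 kb beside it. None of the 483 passed an adjusted p of 0.05 (limma), where 0.0454% of all regions were called wider and 0.00275% narrower in transgenic libraries. At an unadjusted p under 0.05, 83 of them were wider, where 4.5% of all regions were, and 0 narrower. The log2 difference was above 0 in 391, where 52.6% of all regions were, with a median of 0.48 against 0.03 over all regions, and all 4 transgenic values lay above all controls in 41, where 3.26% of all regions did. Without transgenic library 1, 429 such regions remained in the fit, 39 of them wider and 2 narrower at an unadjusted p under 0.05, where 3.28% of all regions were wider, and the median log2 difference was 0.30. These regions share the comparison that led to the choice of families, so this too is a description. The region over the start of Oog3 (chr4:144162443-144164231) had 1579, 860, 1125 and 1235 bp in transgenic libraries 1 to 4 and 200, 200, 648 and 265 bp in control libraries 1 to 4. The transgenic libraries averaged 1200 ± 298 bp there, against 328 ± 215 bp in the control libraries (SD, n = 4 each), without overlap, and the log2 difference was 1.58 ± 0.31 (SE).

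The peaks at these genes were weaker and more often split than the median tested promoter. The strongest peak in a tested member's window had a median fold enrichment of 6.02 by the authors' value, at the 55.0th percentile of its list, against 34.4 and the 89.0th percentile over all tested promoters. Pramel12 and Nlrp6, with 33.2 and 18.5, were the only tested members with a median fold of 15 or more. A tested member's window held a median of 2.5 separate peaks, against 1 over all tested promoters. Where RefSeq gave a start, the better covered end held it in 18 of 38 members (47.4%), against 10485 of 11839 tested promoters (88.6%). The other end of the gene was covered as well in 36 of 44 members (81.8%), against 27.2% of all tested promoters. Summed over all 73 members, the other ends held 35.4 kb in transgenic libraries and 19.4 kb in control libraries on average. In the other 20 of the 38 members with a known start, the window thus lay at a gene end without one. Among the genes described one by one, this held for Oog4, Obox1, Obox2, Obox7, Pramel11, Pramel13, Pramel23, Pramel24, Nlrp4e, Nlrp4f, Nlrp5 and Nlrp9b. Their nearest annotated start lay between 6143 bp (Pramel11) and 61085 bp (Nlrp4e) from the window's centre. Fold enrichment and annotated starts were not used to pick the families. The end used and the peaks in its window are tied to the covered length that had been seen. Coverage of the other ends comes from the same genes and libraries. No test of any of these features was made.

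Genes that work with the members or share their tissue were read from the same fit. Of 20 inflammasome partners, 9 had a peak in all 8 libraries and 4 (Casp4, Il1b, Aim2 and Nlrc4) in none, and 0 of 13 tested were called, with 8 above 0 and a median log2 difference of 0.04. Casp1, the protease that inflammasomes activate, had a peak in 7 libraries and averaged 478.5 ± 95.4 bp over the transgenic libraries, against 438.5 ± 331 bp over the controls (SD, n = 4 each). Peaks were also present in 7 libraries at Casp8 and Naip5, in 6 at Naip1, in 3 at Pycard, the adaptor of inflammasomes, and in 2 at Naip2 and Naip6. Brcc3, a deubiquitinase that acts on Nlrp3, had the smallest p of the list, with a log2 difference of 0.16 ± 0.10 (SE). Unlike the members, Brcc3 lies on X, where coverage was uneven between libraries. Of 6 other NOD-like receptor genes, 4 had a peak in all 8 libraries and 0 of 4 tested were called, with a median of 0.00, and Nod1, a sensor of bacterial cell walls, had −0.17 ± 0.13. Of 5 genes of the subcortical maternal complex and its partners, Zbed3 had a peak in all 8 libraries, Tle6 and Ooep in 5, Khdc3 in 4 and Padi6 in none. None of the 4 tested was called, with 3 above 0 and a median of 0.20, and Ooep had −0.72 ± 0.80. Of 20 other genes of oocytes and early embryos, 6 had a peak in all 8 libraries and 11 in none. Partial marking was seen at Zar1, a maternal-effect gene, in 5 libraries, at Zscan4c in 4 and at Oosp1 in 3. Of this list 0 of 8 tested were called, with 5 above 0 and a median of 0.06. Mos, the kinase that holds eggs in meiosis, had the smallest p, with 939, 1072, 997 and 1019 bp in transgenic libraries 1 to 4 and 808, 787, 761 and 818 bp in control libraries 1 to 4. Its groups did not overlap (log2 difference 0.29 ± 0.09). The list counts stand beside 0% of all tested promoters called in either direction and their median of −0.01.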

How the data were processed

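H3K4me3 ChIP-seq peak lists of 8 libraries (NeuN-sorted CA1 nuclei, 0.2 µg chromatin, 50-bp single-end reads) were used, and 2 input samples were not analysed here. Per the submitters' processing notes the build was mm10 and the tools MACS2, limma, DiffBind, deepTools 3.0.1, SAMtools 1.3.1, FastQC 0.11.5 and Bowtie2 2.0.2. What each did, and which library was the background, is not given in the sources used here. The authors deposited 1 peak list per library, with no header, holding for each peak its position, score, fold enrichment, −log10 p-value and −log10 q-value. Score and fold are the authors' own values and only rank or describe peaks within a list, and stricter peaks had a −log10 q-value of at least 3. The lists hold no read counts, and a deeper library yields more and wider peaks. Group names in titles and peak lists match, while the letters in sample descriptions and in list names cross.

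Peaks were merged within a library (Python 3.11.15, pandas 2.3.3) and set against RefSeq gene positions of GRCm38.p6, the coordinates of mm10, which give no exons or introns. Covered length in the 4001-bp window at the better covered gene end was put on the scale log2(bp + 100 bp), centred within a library on the median of the promoters marked in all 8, and compared with limma 3.58.1 in R 4.3.3 (trended, robust variance) with Benjamini-Hochberg adjustment at 0.05 over 14753 promoters. A fold on this scale understates change at thinly covered genes. Regions were the union of the lists, with 1 bp as overlap, kept if found in 2 or more libraries. The fit was checked on simulated data. Every member with a peak in at least 4 libraries was to be named, or, being over 30, the 8 with the highest mean coverage in each family. Members with a peak in 1 to 3 libraries are named with that number. Members and gene lists were chosen with earlier results of these data known. H1foo was found as H1f8. Alternatives were the pseudocount, centring, filters, window, gene end, peak thresholds, variance model, replicate block and leaving out each library.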

Additional observations from a re-analysis of the deposited data

Results flagged for a closer look

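Of 72 groups of 4 libraries examined, 7 had 1 library far from the other 3. Chance gives this in about 1 of 20 independent groups. These groups share genes, as sums and runs hold the same windows, so the count cannot be set against that rate. Of the 7, 5 were transgenic library 1. That library had 79.6 kb summed over all members' windows, against 52.5, 48.9 and 51.1 kb in the other transgenic libraries, and 35.1 kb summed over the Pramel windows, against 21.2, 20.1 and 22.4 kb. It covered 27.4% of the Pramel1 to Pramel13 run, against 16.3%, 15.5% and 15.6% in the others, 17.1% of the Obox2 to Obox6 run, against 9.41%, 9.36% and 9.42%, and 46.0% of the Nlrp9c to Nlrp9a run, against 25.4%, 23.4% and 26.4%. Transgenic library 2 had 2337 bp at Nlrp4f, below 2659, 2637 and 2634 bp in the other transgenic libraries. Control library 1 held the only peak of the Pramel17 to Pramel19 run, over 0.289% of its length. The part of the length of transgenic library 1's list in these values was not tested.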

How the results depend on the processing

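No member was called at an adjusted p of 0.05 under any of 22 alternatives, and over all genes 0 promoters were called in each of them except with ordinary variance, which called 5 (0 with each library left out). The median log2 difference of the tested members ranged from 0.46, without transgenic replicate 1, to 0.81. Summed coverage differed by 23.7 kb (transgenic minus control), by 13.45 kb with a window of 1 kb, 46.2 kb with 5 kb, 17.4 kb both at the annotated start and with top-ranked peaks, and by 16.5 to 26.8 kb with 1 library left out. Regions called over the members' genes numbered 0, but 3 with no centring, 3 with stricter peaks (Oog3 and Nlrp9b in both), 3 with ordinary variance (Nlrp4b, Obox5 and Nlrp9c), and 0 to 2 with 1 library left out. These were 1 without transgenic replicate 4 (Nlrp2), 2 without control replicate 3 (Oog3 and Nlrp9b) and 2 without control replicate 4 (Nlrp9b and Nlrp4e). The cause was not tested. The chromosome 4 run differed by 7.25 percentage points, by 4.996 with the same number of top-ranked peaks and by 4.34 to 8.32 with 1 library left out, alternatives that were added after seeing the data, as were the ratios and counts without transgenic replicate 1.

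Of 544 alternative values of single genes, 528 kept their direction. Oog4, at −0.08, turned to 0.034 with a window of 1 kb, 0.18 with 5 kb, 0.89 at the annotated start and 0.0020 with top-ranked peaks, and ran from −0.24 to 0.18 with 1 library left out (above 0 without transgenic replicate 4). Oog2, at 0.12, turned to −0.027 with quantile normalization and −0.018 with a window of 1 kb, and ran from −0.18 to 0.85 with 1 library left out (below 0 without transgenic replicate 1, 3 or 4 or control replicate 3). Pramel23, at 0.89, turned to −0.18 with top-ranked peaks. With 1 library left out, Pramel31 ran from −0.12 (without control replicate 2) to 0.56, and Obox1 from −0.089 to 0.81 (below 0 without transgenic replicate 2 or 4 or control replicate 3). The cause was not tested. Replicate numbers did not pair the libraries (correlations of same-numbered deviations −0.06, −0.13, −0.16 and 0.17), and the replicate block called 0 promoters and 0 regions over the members' genes. Lists without read counts leave the depth unknown, and thinly covered genes carry wide errors.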
